A study of Mus musculus with 2 samples.

Results

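The constitutive proteasome subunit genes were taken as every gene of the expression table whose symbol begins with Psma, Psmb, Psmc or Psmd followed by a number, without the immunoproteasome genes Psmb8, Psmb9 and Psmb10, together with Psme1, Psme2 and Psme3. The rule found 40 genes of 27635, and each of the 40 had counts. By role they are 7 alpha (Psma1 to Psma7) and 7 beta (Psmb1 to Psmb7) subunits of the 20S core, 6 ATPases of the 19S cap (Psmc1 to Psmc6), 3 non-ATPase base subunits (Psmd1, Psmd2, Psmd4), 8 lid subunits (Psmd3, Psmd6, Psmd7, Psmd8, Psmd11, Psmd12, Psmd13, Psmd14), 3 chaperones that assemble the base (Psmd5, Psmd9, Psmd10), 3 subunits of the PA28 activator (Psme1, Psme2, Psme3) and 2 core subunits of restricted tissues, Psma8 of the testis and Psmb11 of the thymic cortex. The pattern also took in Psmc3ip, which is not a proteasome subunit but a partner protein in meiotic recombination. Not every gene is constitutive by textbook role, since Psma8 and Psmb11 are restricted to single tissues and Psme1 and Psme2 are known interferon targets.

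The proteasome is the main protease of the cytosol and nucleus. Ubiquitin-tagged proteins are bound and unfolded by the 19S cap and cut inside the barrel of the 20S core, where Psmb6, Psmb7 and Psmb5 carry the caspase-like, trypsin-like and chymotrypsin-like sites. Under interferon, Psmb9, Psmb10 and Psmb8 can take the places of these catalytic subunits, and the PA28 ring of Psme1 and Psme2 can cap the core in place of the 19S cap. The peptides released feed antigen presentation on MHC class I molecules, which is how CD8 T cells recognise tumour cells.

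The data come from subcutaneous B16F10 tumours, a mouse melanoma line, taken 14 days after transplantation. Cells positive for CD3, the T cell receptor's partner, were selected magnetically after a Percoll gradient, and about 20000 were loaded into a single BD Rhapsody microwell capture and amplified with TAS-Seq. The pool held WT cells and Nr4a KO cells (the series title names a deletion of NR4a1/2; Nr4a genes encode nuclear receptors induced in activated T cells) marked with 6 hashtag antibodies. The labels do not give the genotype, animal or number of mice behind a hashtag, nor the driver of the deletion or the age of the mice. All cells share 1 capture, so each hashtag (A0301 to A0306) was treated as a sample of unknown genotype, no genotypes were compared, and no p-value is given.

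Of 12016 barcodes, 11318 passed a minimum of 500 genes and a maximum of 25% mitochondrial counts, with 4142 to 892142 counts each, and 6158 were assigned to a hashtag (379 to 2105 each). Against the label of CD3e-enriched T cells, 8017 barcodes (70.8%) were T cell-like by their clusters' markers, 1524 (13.5%) macrophage or monocyte-like and 1016 (8.98%) melanoma-like. Every melanoma-like barcode held at least 5 counts of Mlana, a pigment-cell antigen, and 10.1% held the T cell receptor gene Trac, whereas Trac was found in 60.04% of the macrophage-like barcodes. Median depth differed widely, at 20687 counts in T cell-like, 73472 in macrophage-like and 193407.5 in melanoma-like barcodes. Counts may hold several reads of 1 molecule, so intervals cover counting error of reads only and may be too narrow for molecules. They do not cover the spread between hashtags.

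Promoter windows are shown for 4 genes from both sides of the main contrast in levels, the catalytic core genes Psmb5 and Psmb6 and the activator genes Psme1 and Psme2. Their sequences (RefSeq, GRCm38.p6) are shown from 120 bases before to 30 bases after the annotated start, 5′ to 3′, at chr14:55578374-55578523 (plus strand) for Psme1, chr14:55591072-55591221 (minus strand) for Psme2, chr14:54617966-54618115 (minus strand) for Psmb5 and chr11:70525237-70525386 (plus strand) for Psmb6. Capitals mark a match on either strand to 2 copies of TTTC set 2 bases apart (TTTC, 2 free bases, TTTC), the letters of an interferon response element, in Psme1 and to TGACNNNGC, the letters of an antioxidant response element, in Psmb5 and Psmb6.
Psme1: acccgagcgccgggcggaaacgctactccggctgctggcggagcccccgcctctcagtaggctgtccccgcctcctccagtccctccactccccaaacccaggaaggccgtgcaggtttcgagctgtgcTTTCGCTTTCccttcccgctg
Psme2: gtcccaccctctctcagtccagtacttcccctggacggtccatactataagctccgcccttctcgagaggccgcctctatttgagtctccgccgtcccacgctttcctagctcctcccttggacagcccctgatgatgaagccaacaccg
Psmb5: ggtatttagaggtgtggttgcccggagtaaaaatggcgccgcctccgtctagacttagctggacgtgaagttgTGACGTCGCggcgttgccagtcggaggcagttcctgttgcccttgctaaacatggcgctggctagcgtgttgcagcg
Psmb6: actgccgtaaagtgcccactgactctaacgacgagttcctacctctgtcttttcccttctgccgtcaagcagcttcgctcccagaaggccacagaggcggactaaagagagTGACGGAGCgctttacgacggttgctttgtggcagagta

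Windows of 250 bases before to 50 bases after the start were found for 33 of the 40 genes, and not for Psma8, Psmb1, Psmb2, Psmb7, Psmc3, Psmd3 and Psmd7. The paired TTTC letters lay in the windows of Psme1, 9 bases past the start, and of Psmb3, Psmd4 and Psmd9, and in 3.44% of all 32851 mouse windows. Those of the antioxidant element lay in Psmb5 (47 bases before the start), Psmb6 (9 bases before it), Psmc6, Psmd9 and Psmd12, and in 12.4% of all windows. The letters TTCNNNGAA of the gamma-activated element were found in Psmd2 (8.30% of all windows) and the CCAAT box in 14 of the 33 genes (37.4% of all windows). The window of Psme2 held none of these letters. A match describes letters and not a bound site, and whether it bears on a gene's level was not tested. In the annotation, Psme1 (chr14:55578123-55581529, plus strand) and Psme2 (chr14:55587441-55591113, minus strand) lie 5911 bases apart (GENCODE vM21, GRCm38). GENCODE begins Psme1 at base 55578123, before the RefSeq window printed above, which begins at base 55578374. The offset of 9 bases thus holds for the RefSeq start only. Psmb5 (chr14:54614119-54618022, minus strand) lies 3410 bases from Psmb11, and the 40 genes are spread over 16 chromosomes.

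Levels are CPM, the summed counts of a cell group scaled to the usual fixed total. Since the library reads the 3′ ends of transcripts, levels were compared between cell groups and not between genes. Across 15 cell states (all but neutrophil-like barcodes, whose median depth was 9255.5 counts), 34 core, cap and chaperone genes spanned 1.44-fold to 5.73-fold between their lowest and highest state, with a median span of 2.00-fold. The sum of the 36 genes outside PA28 and Psmc3ip was at 6899 CPM in melanoma-like cells with the interferon-inducible gene Ubd, 6860 CPM in cycling CD4 Foxp3-positive cells, the regulatory T cells, 6838 CPM in melanoma-like cells without Ubd and 6663 CPM in cycling CD8 cells. The order of these highest states was not resolved, since single hashtags ranged from 6782 to 7078 CPM in the Ubd-negative melanoma-like cells and from 6143 to 6837 CPM in cycling CD8 cells. Of the 15 states, the sum was lowest in CD8 cells with the memory and stem-like factor Tcf7 but without Pdcd1, at 4339 CPM. It was intermediate in macrophage-like states, at 5216 to 5912 CPM. In the neutrophil-like barcodes left out, the sum was 1355 CPM, with Psme1 at 134 CPM and Psme2 at 139 CPM.

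Psme1 and Psme2 ordered the same states differently. With hashtags pooled, Psme1 was at 639 CPM in non-cycling (95% Poisson interval 616 to 663) and 608 CPM in cycling CD4 Foxp3-positive cells. It was at 608 CPM in macrophages with Cxcl9 and 606 CPM in dendritic cells, and lowest in Ubd-negative melanoma-like cells at 223 CPM (220 to 225). Within A0301, the one hashtag with at least 30 non-cycling CD4 Foxp3-positive cells, these lay below the macrophages with Cxcl9 (602 against 645 CPM). The state with the highest Psme1 was thus not resolved. Psme2, its ring partner, was highest in the pooled cycling CD4 Foxp3-positive cells at 731 CPM and lowest in the same melanoma-like cells at 209 CPM. Non-cycling CD4 Foxp3-positive cells of A0301 stood at 739 CPM, so the state with the highest Psme2 was not resolved either. In the melanoma-like cells without Ubd, Psme1 lay between 183 and 246 CPM in the 4 hashtags with at least 30 such cells. That range overlapped only with the Arg1 state of macrophages (223 to 451 CPM in 2 hashtags) among the states with values by hashtag, and the next state up, macrophages with neither Cxcl9 nor Arg1, lay at 327 to 459 CPM.

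As a description, Spearman's rho was taken over the 15 states, which share a library. Each core, cap or chaperone gene was set against the median of the others, every gene first centred on its own mean over states. Over these genes rho had a median of 0.69 (0.21 to 0.97). Psmd1, a scaffold of the base, was closest to the others at 0.97, and the catalytic Psmb7 stood at 0.94. Psme1 and Psme2 stood at -0.13 and -0.00 with the core, cap and chaperone median, and at 0.75 and 0.77 with Psmb9, the inducible catalytic gene. Psme3, whose product forms a separate PA28 ring in the nucleus, stood at 0.24 with that median and 0.21 with Psmb9. The 34 core, cap and chaperone genes themselves ranged from -0.175 to 0.59 with Psmb9, with a median rho of 0.28.

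**Figure D1:**
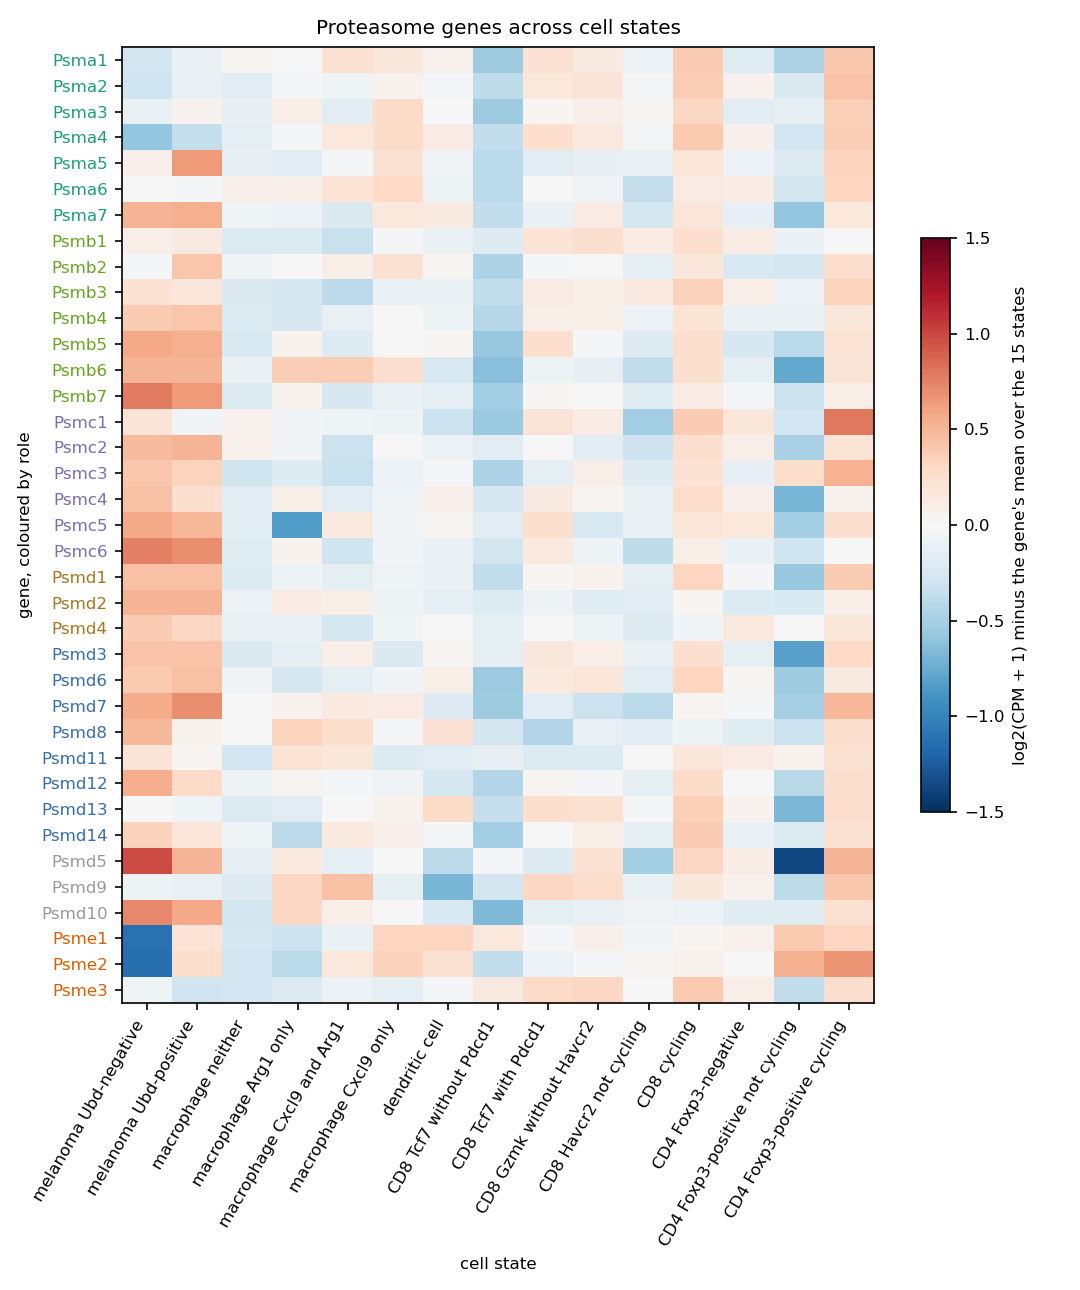
Level of 37 genes (rows, by role) in 15 cell states (columns), as log2 of CPM plus 1 minus the gene's mean over the states. Most beta, ATPase and lid genes are high in melanoma-like and cycling states and low in Tcf7-positive cells without Pdcd1, Psma1, Psma2 and Psma4 lie below their mean in Ubd-negative melanoma-like cells, and Psme1 and Psme2 are lowest there (223 and 209 CPM).

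The restricted genes stayed near the floor. Psma8 had 0 counts in Ubd-positive melanoma-like cells and at most 5.98 CPM in any of the 15 states. Psmb11, which lies 3410 bases from Psmb5, was at 2.88 to 7.26 CPM in these states. In the neutrophil-like barcodes left out it was at 15.5 CPM, from 25 counts.

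**Figure D2:**
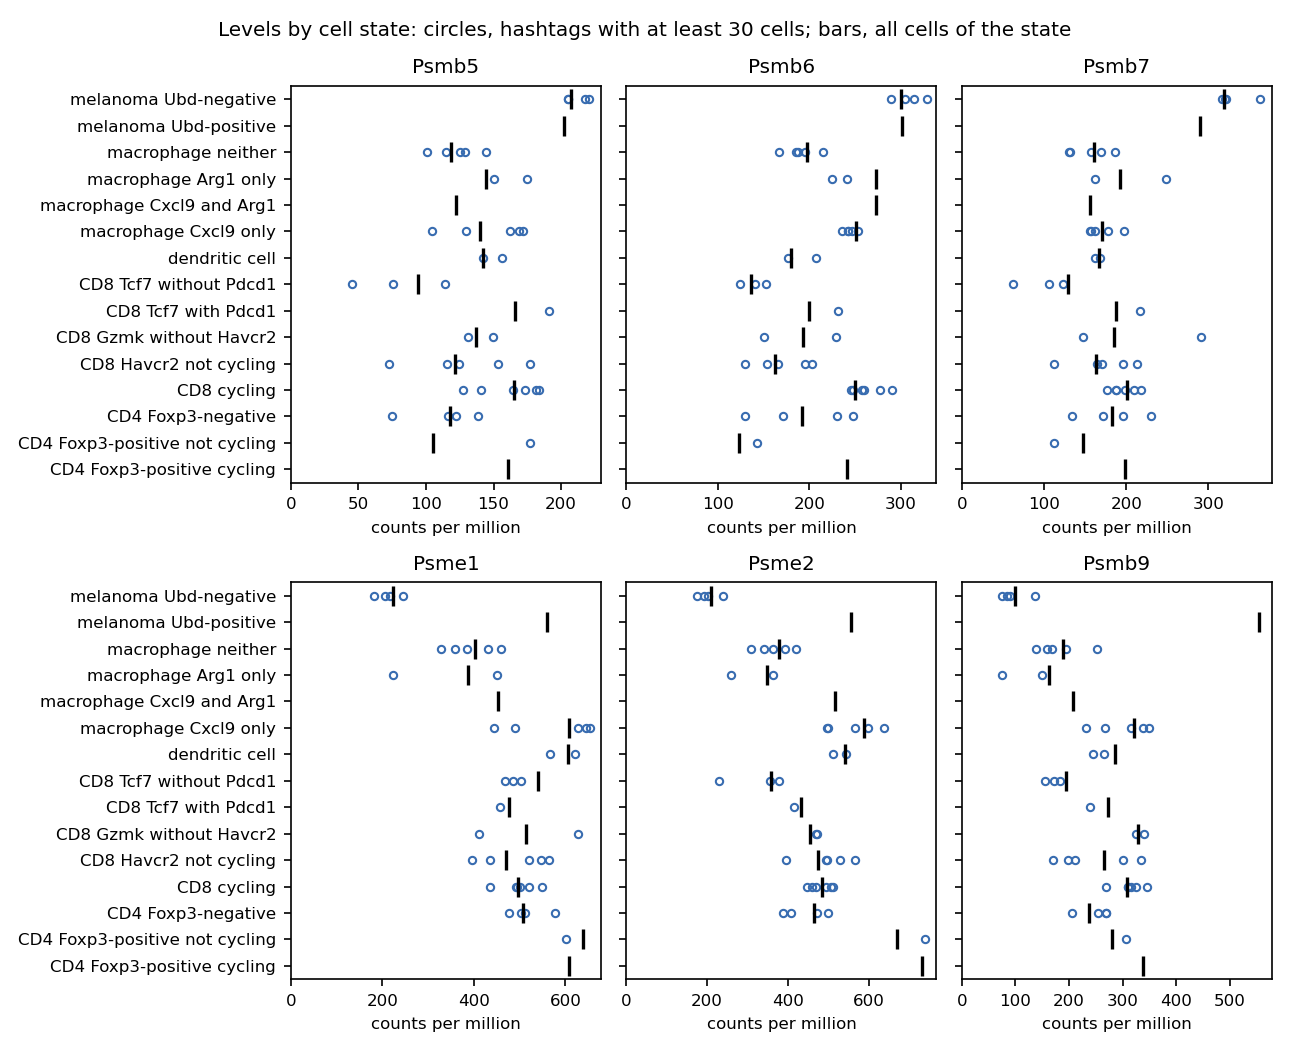
CPM (linear axis from 0) of Psmb5, Psmb6, Psmb7, Psme1, Psme2 and, for comparison, Psmb9 in each cell state, with bars for all cells of the state and circles for single hashtags with at least 30 cells. Psmb7 reaches 317 to 362 CPM in the 4 hashtags of Ubd-negative melanoma-like cells, whereas Psme1 and Psme2 are at 183 to 246 and 175 to 240 CPM there.

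A marker gene counted as present in a barcode at 5 counts or more, and CD8 and CD4 T cells held the one coreceptor and not the other. For each comparison of cell states, counts were summed within a hashtag, 5 counts were added to each sum, and the log2 ratio of CPM was taken within the hashtag. Except where cells were pooled, only cells assigned to a hashtag with enough cells in both arms entered the ratios. A hashtag was assigned in 45.2% of T cell-like, 81.0% of macrophage-like and 83.2% of melanoma-like barcodes. Arm sizes, depths and shares of cycling cells below are over all cells of an arm. Genes whose sums averaged 100 counts or more were examined. A call needed all hashtags on the same side of 0 and a median ratio of 1.5-fold or more. Except with size factors, counts of genes called under other settings come without the share over all genes. Such counts are therefore not results about the members. Whether a gene's hashtag values overlapped between the arms is given as a description, without the share of all genes that did not overlap. Values below are medians over hashtags with the lowest and highest hashtag in brackets. The comparisons share cells (Ubd-negative melanoma-like cells, T cell-like cells and CD8 cells each enter more than 1), so they are not independent of each other.

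In melanoma-like cells, Ubd-positive barcodes (at least 5 counts) held more Psme1 and Psme2 than Ubd-negative ones, and no core, cap or chaperone gene was called. Ubd encodes a ubiquitin-like modifier inducible by interferon. Psme1 stood at 459, 599 and 379 CPM in Ubd-positive cells of A0301, A0304 and A0306 against 246, 317 and 205 CPM in Ubd-negative cells. Psme2 stood at 484, 615 and 403 CPM against 240, 302.5 and 191 CPM. For both genes all Ubd-positive values lay above all Ubd-negative ones. The ratios were 1.87-fold for Psme1 (log2 0.90, 0.89 to 0.91) and 2.03-fold for Psme2 (log2 1.02, 1.02 to 1.08).

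These were the 2 genes called higher of 38 examined, and 0 were called lower, beside 5.14% of all 9661 genes called higher and 3.87% lower. The median over the 38 genes was 0.12, against -0.01 over all genes, and 28 of the 38 were above 0 against 49.4% of all genes. Psme3 went the other way in 2 of the 3 hashtags, at 59.9, 69.7 and 58.1 CPM against 70.8, 62.2 and 76.5 CPM (log2 -0.22), and its groups overlapped.

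The catalytic subunits differed little. Psmb5 was at 213, 200 and 256 CPM in Ubd-positive cells against 221, 184 and 205 CPM (log2 0.12, -0.04 to 0.33), and its groups overlapped. Psmb6 gave 0.38 (-0.15 to 0.40) and Psmb7 -0.02 (-0.10 to 0.07). By role, the median was 0.11 for alpha subunits, 0.18 for beta subunits, 0.02 for ATPases, 0.12 for the other base subunits, 0.09 for the lid and -0.22 for the base chaperones. The lowest gene was the base chaperone Psmd5 at -0.77, with 0.31 in A0301.

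**Figure D3:**
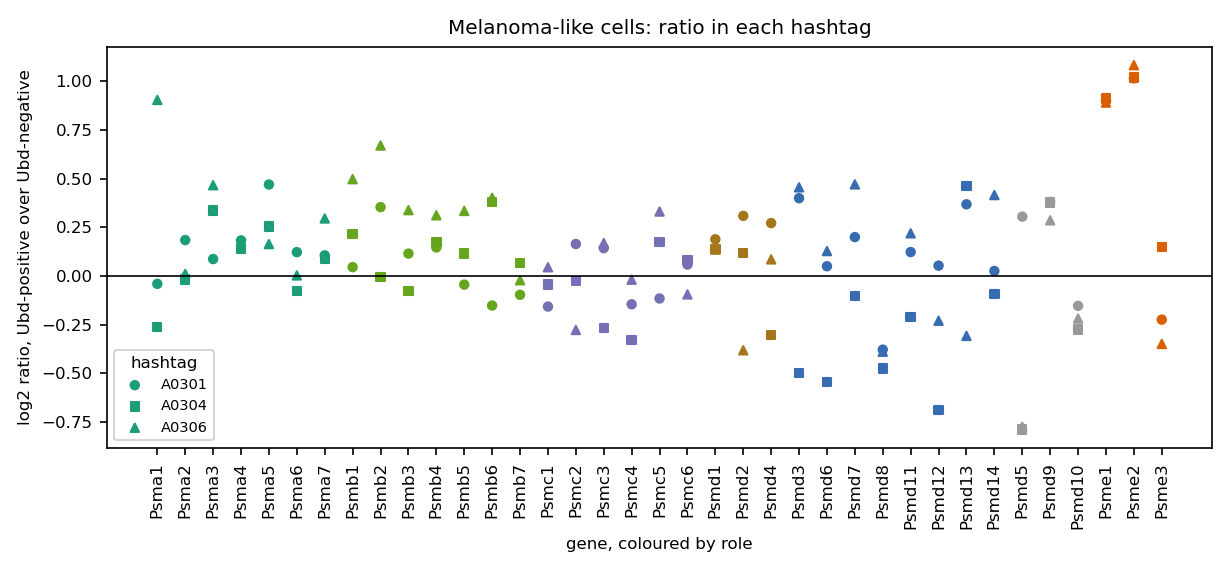
Log2 ratio of CPM, Ubd-positive against Ubd-negative melanoma-like cells, for 37 genes by role, with 1 point for each of 3 hashtags. Psme1 (0.89 to 0.91) and Psme2 (1.02 to 1.08) are high in every hashtag, whereas the other genes scatter around 0 and Psma1 is as high as Psme1 in A0306 alone.

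The immunoproteasome genes, which are not members, were called higher in the same cells, Psmb8 at 1.55, Psmb9 at 1.95 and Psmb10 at 1.56. Of 9 peptide loading genes, 8 were called higher, including the peptide transporter genes Tap1 (1.43) and Tap2 (1.00). None of 6 genes for 20S assembly and inhibition was called, and Pomp, the maturation factor of the core, stood at 0.48 (0.31 to 0.70). Of 10 proteasome-bound ubiquitin enzymes and shuttles only the ligase gene Ube3c was called (0.66), and of 4 ubiquitin genes only Ubb (0.60).

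With hashtags pooled, the levels of Psme1 and Psme2 were higher in each successive bin of Ubd counts. Cells with 0, 1 to 4, 5 to 49 and 50 or more Ubd counts (847, 31, 64 and 74 cells) held 221, 265, 476 and 614 CPM of Psme1. The values of Psme2 were 207, 283, 490 and 600 CPM. The sum of the 36 core, cap and chaperone genes was 6831, 7033, 6976 and 6846 CPM in the same bins. Psme3 stood at 77.2, 89.3, 65.3 and 65.6 CPM. These bins mix hashtags whose Ubd shares and levels differ. Within hashtags the step lay between cells without Ubd and cells with at least 5 counts, and the order of the upper bins was not the same in each. Psme1 in cells with 0, 5 to 49 and 50 or more Ubd counts was at 247, 456 and 462 CPM in A0301, 304.6, 505 and 655 CPM in A0304 and 203, 385 and 369 CPM in A0306. The upper bins held 4 to 14 cells in a hashtag, and the bin of 1 to 4 counts at most 5.

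**Figure D4:**
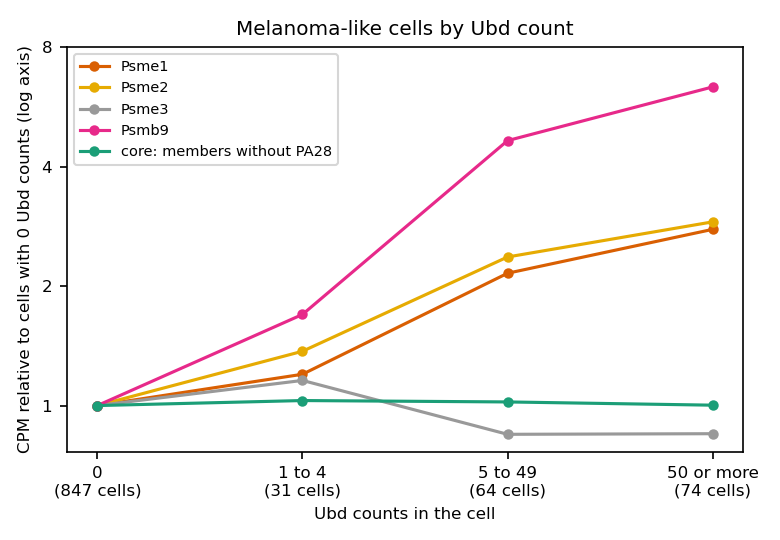
CPM relative to melanoma-like cells with 0 Ubd counts (log axis) in 4 bins of Ubd counts that pool hashtags with different shares of Ubd-positive cells, for Psme1, Psme2, Psme3, Psmb9 and the sum of the 36 core, cap and chaperone genes. Psme1 goes from 221 to 614 CPM and Psme2 from 207 to 600 CPM, more than the 1.87-fold and 2.03-fold found within hashtags, while the core sum stays between 6831 and 7033 CPM.

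Hashtags held very different shares of Ubd-positive cells, 25 of 40 melanoma-like cells in A0304 and 24 of 141 in A0301, but 13 of 287 in A0306, 3 of 69 in A0302 and 2.32% of them in A0305. No hashtag had 30 cells in both arms, so a minimum of 10 was used here, and the negative arm of A0304 had 15 cells. With all cells pooled, hashtags mixed, Psme1 was at 1.33 and Psme2 at 1.41, and the median over the genes turned from 0.12 to -0.01. Ubd-positive cells were also deeper (median 229434 against 190051 counts), more often cycling (57.2% against 48.2% with Mki67 or Top2a) and lower in mitochondrial counts (7.11% against 9.73%). The summed markers of dendritic cells, which include the interferon-responsive H2-Ab1, were at 533 to 988 against 130 to 522 CPM, those of macrophages at 733 to 977 against 797 to 858 CPM and those of T cells at 37.8 to 194 against 50.5 to 425 CPM. The part of these differences in the result was not tested, but without melanoma-like barcodes that held Ptprc, Trac, Tyrobp or Cd3d reads Psme1 was at 0.89 and Psme2 at 1.11. Reads of Psme2 cannot be told apart from those of its intronless copy Psme2b on chromosome 11 where the sequences are identical, and Psme2b was called higher as well (0.95).

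Against T cell-like cells, Ubd-negative melanoma-like cells held less Psme1 and Psme2 and more of the catalytic genes Psmb5, Psmb6 and Psmb7, whereas the alpha subunits showed no common direction. Of 39 genes examined 12 were called higher and 3 lower, beside 34.1% of all 11467 genes called higher and 32.5% lower, so that calls were common among all genes and the members' share called higher was no larger than theirs. The median was 0.37 over the 39 genes and 0.02 over all genes. Both classes come from clusters made with these counts and differ in median depth (190051 against 20687 counts), so the values are descriptions.

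Psme1 stood at 246, 183, 217 and 205 CPM in melanoma-like cells of A0301, A0302, A0305 and A0306 and at 525, 561, 485 and 509 CPM in T cell-like cells. Psme2 stood at 240, 175, 201 and 191 CPM against 478, 474, 480 and 448 CPM. Every melanoma value of both genes lay below every T cell value, and both ratios were log2 -1.24. Psme3 was at -0.38 (-0.50 to -0.17) and not called. The third gene called lower was the alpha subunit gene Psma4, at -0.59.

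The catalytic Psmb7 was the highest, at 321, 362, 321 and 317 CPM against 164, 178, 158 and 170 CPM (1.99-fold, log2 0.99). The ATPase gene Psmc6 was at 215, 225, 210 and 214 CPM against 115, 87.5, 112 and 111 CPM (1.91-fold). Neither gene's groups overlapped. Psmb5 (0.70) and Psmb6 (0.59) were called as well, so all catalytic sites of the constitutive core were on the higher side in melanoma-like cells. The base chaperone Psmd10 was at 0.92, the lid subunit Psmd8 at 0.77 and Psmc3ip, the gene that is no subunit, at 0.98 with levels of 16.5 to 24.1 CPM. The beta subunits had a median of 0.44, the ATPases of 0.50 and the base chaperones of 0.76, while the alpha subunits had a median of -0.10.

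Genes of the neighbouring pathway differed as well. Psmg1 (1.71), Psmg2 (1.94) and Psmg3 (0.92), chaperones that build the alpha ring, were called higher, as was Sem1 (1.05), a small lid subunit. Nfe2l1, which encodes a factor that drives proteasome gene transcription, was at 1.09, while Ddi2 and Ngly1, whose products process that factor, were at -1.35 and -0.71. Psmb8, Psmb9 and Psmb10 were called lower at -1.16, -1.46 and -1.41, as were 6 of 9 peptide loading genes. Scaling by size factors (median of ratios) moved the median of all genes by 0.14, to 0.16, and that of the 39 genes to 0.54, with 16 called higher and 2 lower.

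In macrophage-like cells, those with Cxcl9, an interferon-induced chemokine, held more Psme1 and Psme2 than those with Arg1, the arginase of suppressive macrophages. The arms were 692 cells with Cxcl9 only and 165 with Arg1 only, and A0301 and A0306 had at least 30 cells in both. The ratios used 125 and 56 Cxcl9 cells of these hashtags against 42 and 35 Arg1 cells. Psme1 stood at 645 and 490 CPM in Cxcl9 cells against 451 and 223 CPM in Arg1 cells (1.77-fold, log2 0.82, 0.51 to 1.13). Psme2 stood at 638 and 498 CPM against 363 and 258 CPM (1.83-fold, log2 0.87, 0.81 to 0.94). Neither gene's groups, of 2 hashtags each, overlapped.

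Of 36 genes examined 5 were called higher and 1 lower, beside 12.3% of all 6479 genes called higher and 10.4% lower. The median was 0.16 over the 36 genes and 0.07 over all genes. The share called was thus near the background. Those called were Psmd14, the deubiquitinase of the lid, at 197 and 145 against 116 and 99.6 CPM (0.63), the ATPase gene Psmc5 at 55.7 and 47.1 against 37.5 and 26.7 CPM (0.63) and the alpha subunit gene Psma4 at 331 and 292 against 282 and 145 CPM (0.61). None of these groups overlapped. The base chaperone Psmd10 was called lower (-0.65), at 44.5 and 46.6 against 46.6 and 107 CPM, nearly level in A0301.

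The constitutive catalytic genes were not called, with Psmb5 at -0.32 (-0.53 to -0.12), Psmb6 at 0.06 (0.02 to 0.10) and Psmb7 at -0.17 (-0.62 to 0.27). Psme3 was at 0.14. The inducible Psmb8 (0.95), Psmb9 (1.43) and Psmb10 (0.78) were called higher, as were 4 of 9 peptide loading genes. Of the p97 list, the unfoldase partners that pull proteins from complexes, Nploc4 (-0.65) and Ufd1 (-0.79, listed also under its older symbol Ufd1l) were called lower. Without hashtag A0301, 4 genes were called lower, and without A0306 3 were called higher and 0 lower. Either setting leaves a single hashtag, so that the rule on the side of 0 always holds. With at least 10 cells per arm, which brought in more hashtags, 1 gene, Psme2 (0.81), was called higher and 0 lower. Psme1 lost its call in that setting (0.51), without A0306 (0.51) and with a gate of 10 counts (0.56).

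Macrophage-like barcodes carried reads of other cells, with Trac in 65.6% of the Cxcl9 and 54.5% of the Arg1 arm. The T cell markers summed to 1802 to 2501 against 1577 to 2370 CPM and the dendritic cell markers to 2736 to 4041 against 903 to 941 CPM. Cycling cells made up 46.2% and 27.9%. Without barcodes holding T cell reads, pooled over hashtags, Psme1 was at 1.37 and 3 genes were called higher. The part of the dendritic cell markers and of cycling was not tested.

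Macrophage-like cells as a whole differed little from T cell-like cells in these genes. None of 38 genes was called in either direction over the 6 hashtags, beside 14.6% of all 10037 genes called higher and 19.5% lower. The median over the 38 genes was -0.05 and over all genes -0.22, and with size factors, which moved the latter by 0.23 to 0.00, it turned to 0.19 (all genes then 18.5% higher and 10.8% lower). The alpha subunit gene Psma6 was highest at 0.28 (0.12 to 0.48) and Psme3 lowest at -0.42 (-0.59 to -0.18). Psme1 lay at 375 to 602 CPM in macrophage-like and 485 to 561 CPM in T cell-like cells, with a ratio of -0.14 (-0.44 to 0.17), and Psme2 was at -0.10. Psmb5 was at 0.08, Psmb6 at 0.14 and Psmb7 at -0.04. The part of the T cell reads in these barcodes was not tested. Without the barcodes holding them 4 genes were called lower, a count given without the share over all genes.

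Among CD8 T cells, the core and cap genes were higher in cells with Havcr2, a receptor of exhausted cells, than in cells with Tcf7. Of 36 genes examined 14 were called higher and 0 lower, beside 14.4% of all 5926 genes called higher and 11.3% lower. The median was 0.52 over the 36 genes and 0.07 over all genes, and 34 of the 36 were above 0 against 54.6% of all genes. The arms were 1192 and 704 cells, and the medians in A0301, A0305 and A0306 were 0.59, 0.50 and 0.57. The ratios used 176, 71 and 108 Havcr2 cells of these hashtags against 136, 49 and 69 Tcf7 cells.

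The alpha subunit gene Psma3 was highest, at 385, 395 and 362 CPM in Havcr2 cells against 179, 196 and 178 CPM in Tcf7 cells (2.01-fold, log2 1.01, 0.99 to 1.09). Psmb7 stood at 203, 230 and 176 CPM against 149, 106 and 87.1 CPM (1.98-fold). Psmd1 stood at 223, 273 and 234 CPM against 149, 84.4 and 124 CPM (1.86-fold). In each of these genes all Havcr2 values lay above all Tcf7 values. The same held for Psmb6, at 246, 266 and 233 CPM against 137, 175 and 127 CPM (1.78-fold), and for the ATPase gene Psmc1, at 176, 122 and 130 CPM against 98.2, 73.2 and 64.1 CPM (1.78-fold). Psmb5 was called at 0.82 (0.79 to 1.02), at 158 to 189 against 75.1 to 106 CPM, so that every constitutive catalytic gene was on the higher side.

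By role, 4 of 7 alpha subunits (median 0.68), 4 of 7 beta subunits (0.63) and 3 of 8 lid subunits (0.70) were called, but 1 of 6 ATPases (0.41), 1 of 3 other base subunits (0.18) and 0 of 3 PA28 genes (0.32). Psme1 was at 506, 445 and 470 CPM against 492, 472 and 420 CPM (0.04), with overlapping groups. Psme2 was at 463, 538 and 499 CPM against 384, 387 and 275 CPM (0.47, 0.27 to 0.85), without overlap but below the size of a call, and Psme3 at 0.32. The base chaperone Psmd9 was lowest at -0.61 (-0.84 to 0.34), while Psmd10, another base chaperone, was called higher at 0.80.

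The assembly factor Pomp (0.64) and Uchl5 (0.73), a deubiquitinase bound to the cap, were called higher too. Of the 3 genes of proteasome transcription control that were examined, Nfe2l2 (-1.38) and Ngly1 (-0.85) were called lower. Psmb8 (0.38), Psmb9 (0.43) and Psmb10 (0.12) were not called. Havcr2 cells were deeper (median 44640 against 23504.5 counts), more often cycling (51.6% against 19.9%) and lower in dendritic cell markers, which include Ccr7 of resting T cells (72.3 to 174 against 452 to 683 CPM). The median over the genes was 0.46 in cells of matched depth, 0.41 without cycling cells, where Psmc1 turned to -0.09, and 0.34 without a Klra7-led cluster in which Trac was found in 59.7% of cells, which left 8 genes called. It was 0.20, with 2 genes called higher and 1 lower, when the Tcf7 arm was limited to Pdcd1-positive cells and hashtags were pooled, where Psmb5 turned to -0.05. Pooled by state, the sum of the 36 genes outside PA28 and Psmc3ip was 5848 CPM in Tcf7 cells with Pdcd1 and 4339 CPM in those without. It was 5203 CPM in non-cycling Havcr2 cells and 6663 CPM in cycling CD8 cells. These states may overlap. With size factors 16 genes were called higher, and all genes were called higher in 18.3% and lower in 9.47%.

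Cycling CD8 cells (Mki67 or Top2a, 1480 cells) held more of these genes than the other CD8 cells (2639 cells), by less per gene but nearly throughout. Of 37 genes 36 were above 0 against 45.9% of all genes, with a median of 0.43 against -0.05. The median was above 0 in each of the 6 hashtags, at 0.22 to 0.57. Single hashtags held 38 to 231 cycling and 69 to 433 other cells. By the size rule 6 were called higher and 0 lower, beside 9.84% of all 6696 genes called higher and 8.72% lower.

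The ATPase gene Psmc2 was highest at 0.82 (0.16 to 0.98). Psma3 (0.80), Psma1 (0.75), the lid subunit gene Psmd12 (0.74), the ATPase gene Psmc3 (0.70) and Psmb6 (0.62) were the others. Psmd12 ranged from 157 to 207 CPM in cycling and from 101 to 118 CPM in other cells, and Psmb6 from 246 to 290 against 142 to 181 CPM, without overlap. The groups of Psma1, Psma3 and Psmc3 did not overlap either, while those of Psmc2 did, with 90.6 to 140 against 44.0 to 98.4 CPM. Psme1 was the lowest gene, at 436 to 550 CPM in cycling and 447 to 541 CPM in other cells (-0.00, -0.17 to 0.22). Psme2 was at 0.19, Psme3 at 0.29, Psmb5 at 0.39 and Psmb7 at 0.29, and none of these was called.

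The deubiquitinase genes Uchl5 (1.12) and Usp14 (0.94) and the shuttle gene Ubqln1 (0.65) were called higher, and Nfe2l1 was called lower (-0.71). None of 9 peptide loading genes was called, and 7 of 11 interferon genes were called lower. Cycling cells were deeper (median 55391.5 against 21368 counts), and in cells of matched depth the median fell to 0.25 and none of the 6 genes was called by its ratio, with Psma3 at 0.07 and Psmb5 at -0.29. With size factors 11 genes were called higher (all genes 12.04% higher and 6.47% lower).

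In CD4 T cells, Foxp3-positive cells, cycling and non-cycling together, differed little from 714 Foxp3-negative cells in these genes. Of 35 genes 2 were called higher and 0 lower, beside 7.9% of all 3785 genes called higher and 7.61% lower, so the share called lay near the background. The median was 0.23 against 0.02 over all genes. The ratios used 61, 31 and 34 Foxp3-positive cells of A0301, A0305 and A0306 against 128, 64 and 67 Foxp3-negative cells. The lid subunit gene Psmd8 stood at 171, 207 and 199 CPM in A0301, A0305 and A0306 against 167, 109 and 111 CPM (1.78-fold, log2 0.83), without overlap but nearly level in A0301. Psmd2, a base subunit that docks substrates, stood at 134, 159 and 117 CPM against 89.5, 121 and 58.6 CPM (0.59), with overlap.

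Psme1 and Psme2 were not called. Their hashtag values did not overlap between the arms, which is given without the share over all genes. Psme2 stood at 666, 630 and 733 CPM against 471, 498 and 407 CPM (0.50, 0.34 to 0.85). Psme1 stood at 699, 536 and 569 CPM against 511, 477 and 503 CPM (0.18, 0.17 to 0.45), and Psme3 was at 0.08. Psmb5 was at -0.03, Psmb7 at 0.04 and Psmb6 lowest at -0.14. Foxp3-positive cells were deeper (32131 against 18936 counts) and more often cycling (43.6% against 25.1%). Pooled by state, the sum of the 36 genes outside PA28 and Psmc3ip was 6860 CPM in cycling and 4674 CPM in non-cycling Foxp3-positive cells. It was 5563 CPM in Foxp3-negative cells, which were not split by cycling. In A0301 non-cycling Foxp3-positive cells stood at 5105 CPM, and Foxp3-negative cells at 5379 to 5859 CPM over 4 hashtags. Without cycling cells 6 genes were called higher and 5 lower and Psmd8 turned to -0.02, without hashtag A0301 5 were called higher, and without A0306 0. The share over all genes is not given for these settings. With size factors 0 were called higher (all genes 5.71% higher and 9.85% lower).

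**Figure D5:**
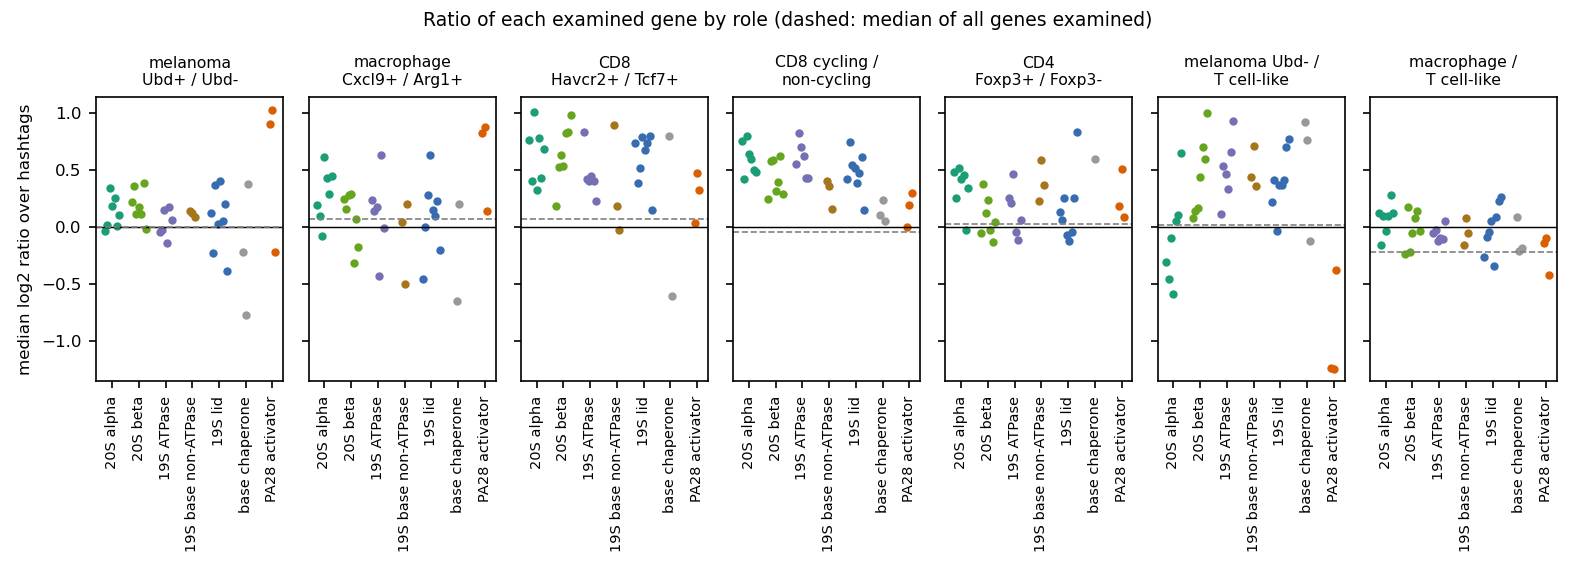
Log2 ratio of each examined gene (median over hashtags, 1 point per gene), grouped by role, in the 7 comparisons, with a dashed line at the median of all genes examined. The PA28 median is 0.90 in Ubd-positive against Ubd-negative melanoma-like cells and -1.24 in Ubd-negative melanoma-like against T cell-like cells, while the alpha and beta subunits have their highest medians in Havcr2-positive against Tcf7-positive CD8 cells (0.68 and 0.63).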

How the data were processed

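The deposited tables hold raw counts per gene and cell barcode for the mRNA library and per hashtag and barcode for the hashtag library, per the file headers. The submitters' processing notes name cutadapt 2.10, Bowtie2 2.3.4.1 and 2.4.2, R 3.5.3 and the build GRCm38, with no role for each. Read 1 carries a molecular identifier per the labels' protocol, and whether the authors collapsed the counts by it was not given in these sources. The labels say that cell names carry a hashtag identity, and the names in the table do not.

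Barcodes were kept with at least 500 genes and at most 25% mitochondrial counts, and clustered on 3000 variable genes, 40 principal components and 20 neighbours at resolution 1 (scanpy 1.11.5, leidenalg 0.10.2). Clusters were named by 17 marker lists. Doublets were not removed, since the automatic threshold of scrublet marked 1 cell, and an alternative left out the top 5% of scores. A hashtag was assigned where the likelihood gain of the best tag was at least 3 and that of the next was lower. Counts were summed per hashtag and arm, with at least 30 cells in each arm, or 10 for the Ubd comparison. A marker counted as absent below 5 counts.

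Members and lists were chosen with earlier results of these data known. Every hashtag comes from the same capture and its genotype is unknown, so there is no test between groups. Named throughout are Psmb5, Psmb6, Psmb7, Psme1, Psme2 and Psme3, and in each comparison the genes called (the 5 with the largest ratio in size where more than 10 were called) and the highest and lowest. The ratio and call script was tested on simulated data. Settings that leave out barcodes with immune or T cell reads, the Klra7 cluster or cycling T cells, that add unnamed melanoma barcodes, or that require Pdcd1 or Havcr2 were chosen after seeing the data. Poisson intervals are at 95%. Python 3.11.15, numpy 2.4.6, pandas 2.3.3 and scipy 1.17.1 were used.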

Additional observations from a re-analysis of the deposited data

Results flagged for a closer look

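In Ubd-negative melanoma-like against T cell-like cells, the ATPase gene Psmc6 had a log2 ratio of 1.35 in hashtag A0302, while the other 3 hashtags lay between 0.90 and 0.95. The gap of this hashtag to the nearest other was large for a group of 4 values. Of 29 groups of hashtag values looked at this was 1, and chance gives about 1 in 20.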

How the results depend on the processing

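Of 408 recomputed medians and counts of genes called, 333 stayed the same within the limits used. Of 1167 recomputed ratios of single genes, 133 moved and 4 reversed. The cause of each change below was not tested. The counts of genes called are given here without the share over all genes in the same setting, so they are not results about the members.

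With size factors, the median became 0.21 for macrophage Cxcl9 against Arg1, 0.59 for CD8 Havcr2 against Tcf7, 0.54 for melanoma against T cells and 0.19 for macrophages against T cells, while 11 genes were called higher in cycling CD8 and 0 in Foxp3-positive cells. With all cells pooled, the median was -0.012 for melanoma Ubd, 0.067 for macrophage Cxcl9 (0 lower) and 0.44 for Havcr2 (5 higher, 1 lower). Pooling gave 11 higher and 1 lower in cycling CD8, 1 higher in Foxp3-positive cells and 1 higher in macrophages against T cells.

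With cells thinned to 10000 counts, the median was 0.11 for macrophage Cxcl9 (0 lower), 0.59 for melanoma against T cells and 0.16 for macrophages against T cells, with 1 gene lower for melanoma Ubd and 9 higher for Havcr2. In cells of matched depth it was 0.083 for macrophage Cxcl9 (5 lower), 0.46 for Havcr2 (9 higher) and 0.25 for cycling CD8 (1 lower), with 5 lower for Foxp3 and 1 lower for macrophages against T cells. With a gate of 10 counts it was 0.24 for macrophage Cxcl9 (0 lower, Psmd10 reversed to 0.23), 0.62 for Havcr2 and 0.10 for Foxp3, with 12 higher in cycling CD8.

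Without cycling cells the median was 0.089 for macrophage Cxcl9 (5 lower), 0.41 for Havcr2 (Psmc1 reversed to -0.087), 0.12 for Foxp3 (6 higher, 5 lower, Psmd8 reversed to -0.021), 0.51 for melanoma against T cells and 0.15 for macrophages against T cells (1 higher, 1 lower). Without barcodes holding T cell reads it was 0.025 for macrophage Cxcl9, pooled (3 higher), and -0.18 for macrophages against T cells (4 lower), and without cycling T cells 0.25 (3 higher). For Havcr2 it was 0.34 without the Klra7 cluster (8 higher) and 0.20 with Pdcd1 required, pooled (2 higher, 1 lower, Psmb5 reversed to -0.048).

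With at least 10 cells, 1 gene was called higher and 0 lower for macrophage Cxcl9, and 8 higher for Havcr2. The stricter quality filter left 1 higher for Foxp3. With calls at 2-fold, 1 was higher for melanoma Ubd, 0 higher and 0 lower for macrophage Cxcl9, 1 higher for Havcr2, 0 for cycling CD8, 0 for Foxp3 and 0 for melanoma against T cells.

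Leaving out 1 hashtag at a time, the median ranged from 0.04 to 0.16 for melanoma Ubd (2 to 3 higher, 0 to 1 lower), 0.14 to 0.19 for macrophage Cxcl9 (3 to 5 higher, 0 to 4 lower), 0.52 to 0.59 for Havcr2 (14 to 19 higher, 0 to 1 lower), 0.40 to 0.51 for cycling CD8 (5 to 9 higher), 0.14 to 0.21 for Foxp3 (0 to 5 higher), 0.34 to 0.39 for melanoma against T cells (10 to 12 higher, 2 to 3 lower) and -0.07 to 0.03 for macrophages against T cells. Not run, since too few cells remained, were melanoma Ubd without cycling cells, macrophage Cxcl9 without T cell reads by hashtag, and melanoma against T cells at matched depth. Every ratio is taken within a hashtag, so each comparison except those of pooled cells is already paired by hashtag, and the labels give no replicate numbers for a further block.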
